A study of Rattus norvegicus with 8 samples.

Results

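Matrix metalloproteinases are zinc enzymes that cut the proteins of the extracellular matrix, and the tissue inhibitors of metalloproteinases (TIMPs) block them by binding their active site. The set described here holds 6 of the 4736 rat genes that the array measures under a single symbol: the secreted gelatinase Mmp2, the membrane-anchored enzymes Mmp14 and Mmp16, and the inhibitors Timp1, Timp2 and Timp3. Members were all probe sets that the platform annotation gives to 1 of these symbols, and 8 of 8799 probe sets on the array met this. Mmp2 and Timp1 had 2 probe sets each, the other genes had 1, and no gene was without one. Testing covered the 6684 probe sets that averaged 8 or more in signal after normalisation, and all 8 were among them.

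RNA came from C6 cells, a rat glioma line widely used to study glial tumour migration, the topic given in the labels. There were 4 groups with 2 arrays each: C6SPGFP fast, C6SPGFP slow, C6 fast and C6 slow. The labels do not say what SPGFP stands for, how fast and slow cells were separated, how the lines were derived or whether both replicates of a group were cultured apart. The p-values therefore speak to array-to-array spread alone, which may be technical. No treatment is named for any group, and all 4 share the C6 line as their source.

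In the pericellular system, Mmp14 and Mmp16 sit in the plasma membrane and can activate the secreted proenzyme of Mmp2, and Timp2 takes part in this step as a bridge between Mmp14 and the proenzyme. Timp1 inhibits most secreted enzymes but is a poor inhibitor of the membrane-type ones, whereas Timp2 and Timp3 inhibit both kinds. Timp3 is bound to the matrix and also inhibits ADAM proteases such as Adam17. In gliomas the system is known for its part in invasion through brain matrix.

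Upstream sequence was at hand for 3 of the 6 genes, the inhibitors, and it is shown for that reason. Any part of it in their levels was not tested. Each run is the 250 bases before the gene's start in RefSeq (build GRCr8), 5′ to 3′ on the gene's strand, which is the minus strand for all 3. The positions are chrX:3771123-3771372 for Timp1, chr10:104089215-104089464 for Timp2 and chr7:19459559-19459808 for Timp3. Capitals mark matches, on either strand, to the AP-1 motif TGANTCA, the AP-1 variant TGAGTAA, the Ets motif AGGAAG, the GC box GGGCGG and the CCAAT box.
Timp1: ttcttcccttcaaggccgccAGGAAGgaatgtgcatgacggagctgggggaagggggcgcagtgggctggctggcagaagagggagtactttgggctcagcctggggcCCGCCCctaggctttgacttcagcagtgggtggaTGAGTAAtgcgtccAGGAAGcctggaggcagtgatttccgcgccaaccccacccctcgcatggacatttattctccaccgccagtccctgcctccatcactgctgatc
Timp2: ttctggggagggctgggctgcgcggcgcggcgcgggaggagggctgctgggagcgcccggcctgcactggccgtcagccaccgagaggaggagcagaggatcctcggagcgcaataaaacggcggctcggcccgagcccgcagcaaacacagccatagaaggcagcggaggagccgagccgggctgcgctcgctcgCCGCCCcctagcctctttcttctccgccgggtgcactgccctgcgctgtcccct
Timp3: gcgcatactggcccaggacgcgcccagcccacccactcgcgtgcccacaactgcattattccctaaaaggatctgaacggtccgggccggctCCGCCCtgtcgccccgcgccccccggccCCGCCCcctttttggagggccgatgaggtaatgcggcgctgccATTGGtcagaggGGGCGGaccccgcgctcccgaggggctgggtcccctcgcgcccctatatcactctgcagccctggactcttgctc
The Timp1 stretch held 1 TGAGTAA, 108 to 102 bases before the start, 2 AGGAAG and 1 GC box, and no matches overlapped. The Timp3 stretch held 3 GC boxes and 1 CCAAT box, and the Timp2 stretch held 1 GC box. None of the 3 held TGANTCA. Among 33469 upstream stretches of the same length in the table, 2.38% held TGAGTAA, 6.34% TGANTCA, 29.5% AGGAAG, 30.5% the GC box and 34% the CCAAT box. A match describes letters only and is no measure of binding.

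Values below are quantile-normalised signals, a linear scale of array brightness. The deposited signals had a 2% trimmed mean of 99.35 to 104.8 on 7 arrays and 499.9 on C6SPGFP fast replicate 1, which made this step necessary. Signals of different probe sets are not set against each other, since each probe set has its own response. The 25th percentile of all normalised signals was 7.55, and no detection call sets signals this low apart from background. In bulk RNA, fewer cells making a transcript and less of it per cell cannot be told apart. The 5 comparisons are C6SPGFP against C6 in fast and in slow cells, fast against slow cells in each set, and the difference between those last changes. Across tested probe sets, Pearson's r was 0.899 to 0.939 between C6 fast arrays and those of other groups, 0.936 to 0.971 between arrays of the other 3 groups and 0.969 to 0.978 between replicates. Of the glial markers, Vim, Nes, S100b and Slc1a3 were measured and Gfap was not. Their summed signal was 5714 to 5813 on C6SPGFP fast, 5404 to 5420 on C6SPGFP slow, 2854 to 3081 on C6 fast and 4021 to 4440 on C6 slow arrays. All 4 were tested. Nes, S100b and Vim were higher in C6SPGFP fast than in C6 fast cells, S100b was higher in C6SPGFP slow than in C6 slow cells, and Nes and S100b were lower in C6 fast than in C6 slow cells. Slc1a3, close to the filter, passed in no comparison. Of the microglial and haematopoietic markers 5 of 8 measured genes were tested, and of the endothelial and mural markers 5 of 7. None of those tested passed in any of the 5 comparisons, and none of those measured was listed at 0 on every array.

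**Figure D1:**
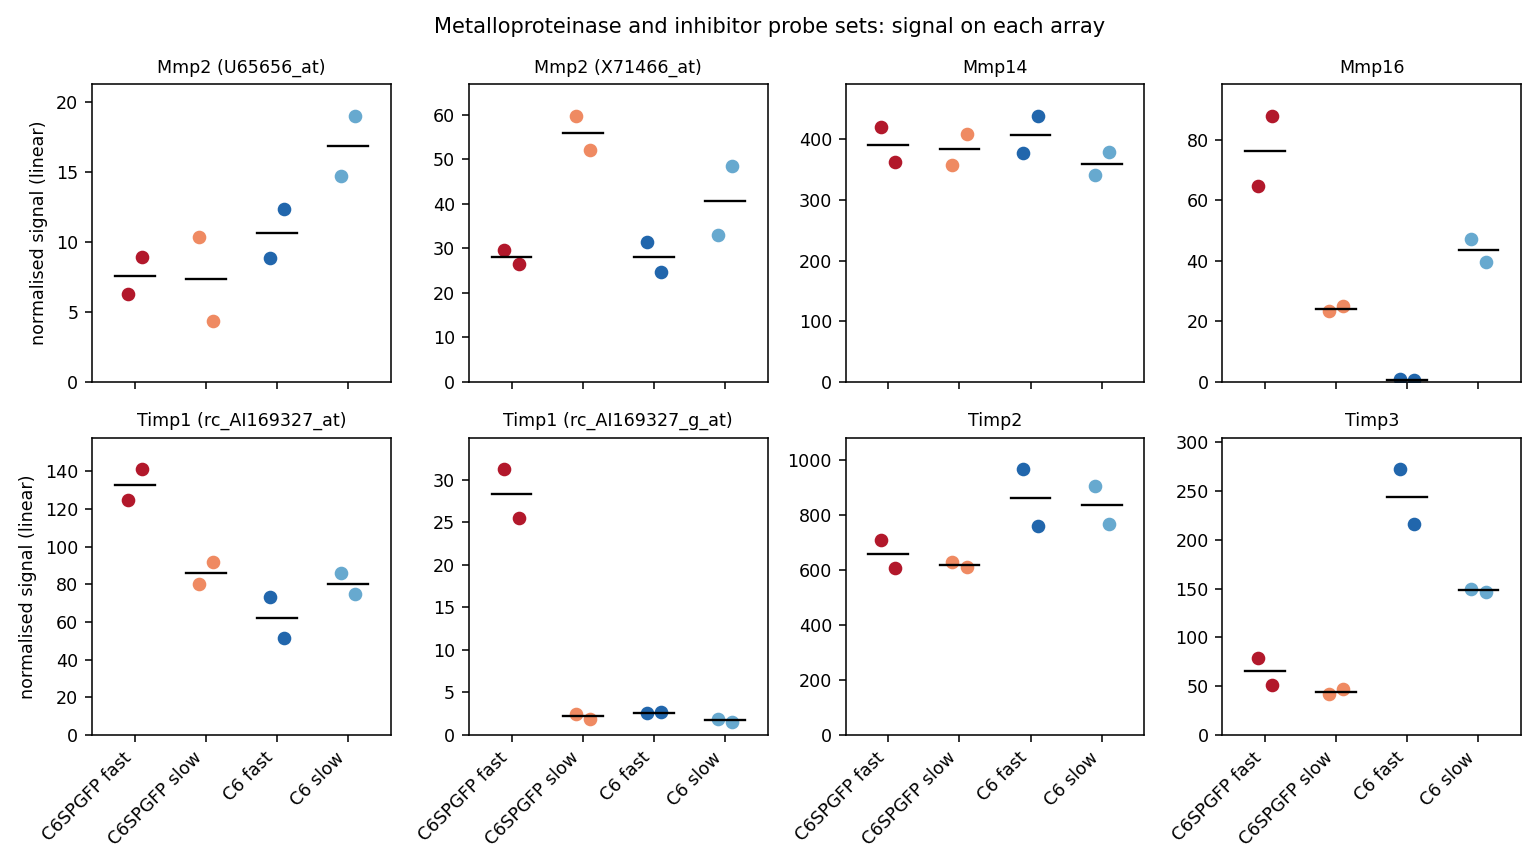
Normalised signal (linear, each panel on its own axis from 0) of the 8 probe sets on every array, by group. Points are arrays and bars are means of 2 arrays. Mmp16 is near 0 on both C6 fast arrays, Timp3 is lower on all 4 C6SPGFP than on all 4 C6 arrays, and Mmp14 lies between 341 and 438 throughout.

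Among the proteases, Mmp16 was the one with a transcript level that passed the test, and it did so in 4 of the 5 comparisons. Its probe set, D63886_s_at, gave 64.6 and 87.8 on the C6SPGFP fast arrays, 23.3 and 25.2 on C6SPGFP slow, 0.912 and 0.456 on C6 fast and 47.4 and 39.7 on C6 slow. No group overlapped another. The order of the group means was C6SPGFP fast (76.2), C6 slow (43.5), C6SPGFP slow (24.2) and C6 fast (0.684).

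On the C6 fast arrays the Mmp16 signal was at the bottom of the array's range, and on the C6 slow arrays it was well above the 25th percentile. The log2 change of signal plus a pseudocount of 8, fast minus slow, was -2.57 ± 0.23 (SE, adjusted p = 0.000295). The size of this change depends on the pseudocount because the fast signals are near 0. It was -4.73 with a pseudocount of 1 and -1.21 with 32, past the threshold under both. Mmp16 was the 1 member probe set that passed in C6, where 6.66% of all tested probe sets passed. This is 1 of 7, leaving out rc_AI169327_g_at of Timp1, which entered the test only through its C6SPGFP fast arrays (1 of 8 with it).

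In C6SPGFP cells Mmp16 went the other way, higher in fast cells by 1.37 ± 0.23 on the log2 scale (adjusted p = 0.0264). Of all tested probe sets 1.39% passed in this set. The other member probe set that passed there, rc_AI169327_g_at of Timp1, entered the test only through its high C6SPGFP fast arrays, and without it 1 of 7 passed. This call was weak: leaving out any 1 of the 4 C6SPGFP arrays ended it (adjusted p = 0.0767 and 0.235 without fast replicates 1 and 2, 0.143 and 0.17 without slow replicates 1 and 2). It also ended with a pseudocount of 1 (0.0736) and without the filter (0.0627).

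How far the sets differ in this change (fast minus slow in C6SPGFP, less the same in C6) was tested directly, and the difference was 3.94 ± 0.33 for Mmp16 (adjusted p = 0.000359). Of all tested probe sets 3.82% passed this test. Of the members 1 of 7 did, leaving out the same Timp1 probe set, which also passed. For Mmp16 the difference passed under every one of the 15 alternatives that tested it, with adjusted p-values from 0.00021 to 0.00363. The filter at the median signal left Mmp16 untested. The size of the difference depends on the pseudocount, and was 6.33 with a pseudocount of 1 and 2.14 with 32.

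Between the sets, Mmp16 was higher in C6SPGFP fast than in C6 fast cells by 3.26 ± 0.23 (adjusted p = 4.63e-05), a change that was 5.51 with a pseudocount of 1 and 1.72 with 32. In slow cells the change was -0.67 ± 0.23 (adjusted p = 0.135), which did not pass, although the 23.3 and 25.2 of C6SPGFP slow lay below the 47.4 and 39.7 of C6 slow. These comparisons share arrays with those of fast and slow cells, so the 4 group levels are the measurement and the changes are views of it. Of the 4 glial markers measured, S100b and Nes moved with Mmp16 in several of these comparisons, though not in all. S100b, a calcium-binding protein, averaged 1261 in C6SPGFP fast, 1226 in C6SPGFP slow, 65.9 in C6 fast and 408 in C6 slow cells. Nes, an intermediate filament protein, averaged 771 in C6SPGFP fast, 992 in C6SPGFP slow, 235 in C6 fast and 933 in C6 slow cells. Both passed in C6 (fast minus slow -2.50 for S100b, adjusted p = 5.28e-05, and -1.98 for Nes, adjusted p = 0.00042), on the difference (2.54 for S100b, adjusted p = 0.000433, and 1.62 for Nes, adjusted p = 0.013) and between fast cells. Neither passed in C6SPGFP, where the Nes change was -0.36 while Mmp16 was higher in fast cells. In slow cells S100b was higher in C6SPGFP by 1.57 ± 0.16 (adjusted p = 0.00132), opposite in sign to Mmp16. Vim passed between fast cells alone (0.48, adjusted p = 0.0115), and Slc1a3 passed in no comparison. The part of these markers in the Mmp16 result was not tested.

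**Figure D2:**
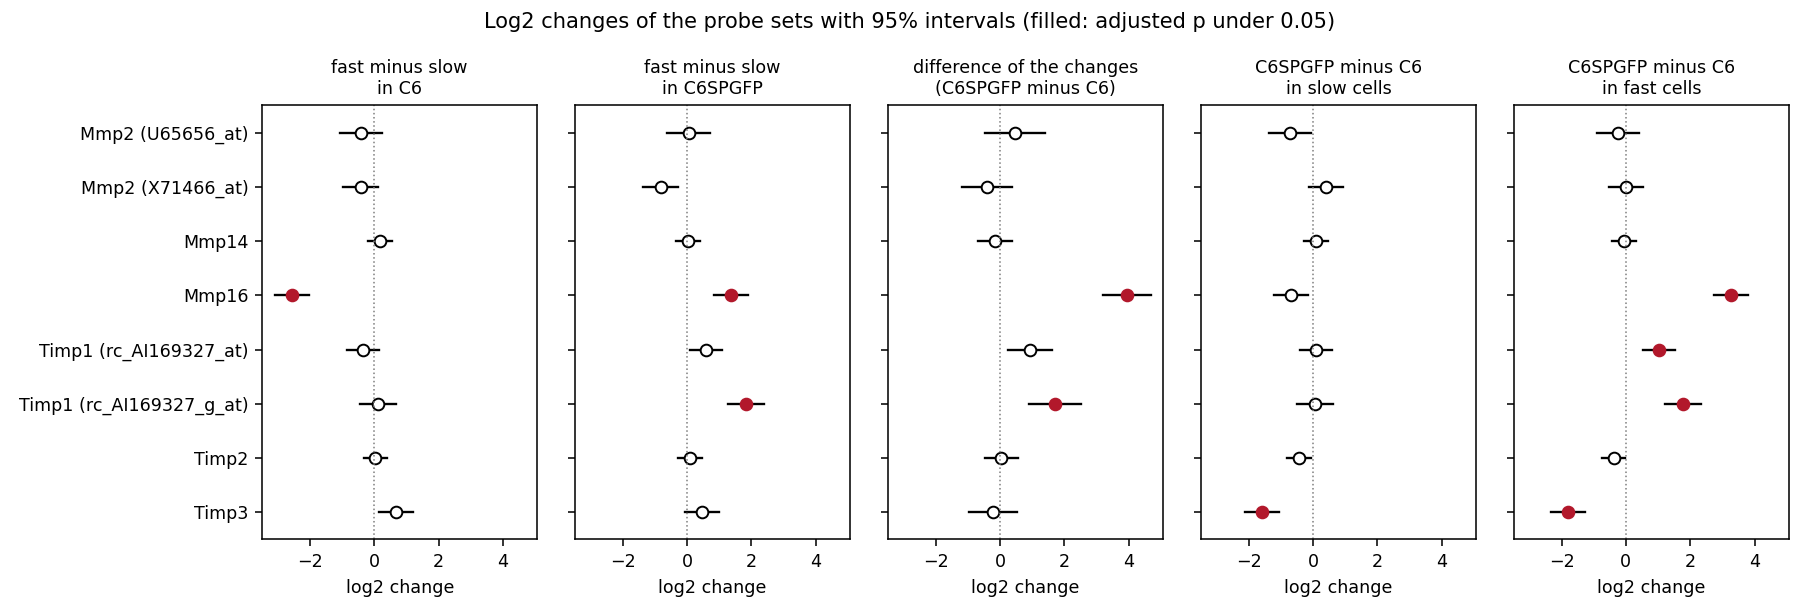
Log2 changes (horizontal axis, signal plus 8) of the 8 probe sets (rows) in the 5 comparisons, with 95% intervals from limma. Filled points passed at an adjusted p under 0.05: Mmp16 in 4 panels, the Timp1 probe sets in 3 and 1, Timp3 in 2, and none for Mmp2, Mmp14 or Timp2.

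Mmp14, the membrane enzyme that activates Mmp2, showed no detectable difference. Its signals were 421 and 362 in C6SPGFP fast, 358 and 409 in C6SPGFP slow, 378 and 438 in C6 fast and 341 and 379 in C6 slow cells, and the groups overlapped in each comparison. The fast minus slow change had a 95% interval of -0.19 to 0.55 in C6 and -0.34 to 0.40 in C6SPGFP (log2). Between the sets the interval was -0.43 to 0.31 in fast and -0.28 to 0.46 in slow cells. A change of 2-fold in either direction lies outside all 4 intervals.

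Mmp2, the gelatinase that cuts type IV collagen and denatured collagen, averaged below the median signal on both probe sets and passed in no comparison. On X71466_at every array was above the 25th percentile of all signals, and on U65656_at some were below it. X71466_at gave 29.6 and 26.5 in C6SPGFP fast, 59.6 and 52.1 in C6SPGFP slow, 31.5 and 24.7 in C6 fast and 32.9 and 48.4 in C6 slow cells. Fast cells were below slow cells in each set without overlap, with changes of -0.82 ± 0.24 in C6SPGFP (adjusted p = 0.216, unadjusted 0.00748) and -0.42 ± 0.24 in C6 (adjusted p = 0.398). U65656_at lay between 4.33 and 19 on all arrays, with 7.61 on average in C6SPGFP fast, 7.35 in C6SPGFP slow, 10.6 in C6 fast and 16.9 in C6 slow cells. Its fast minus slow change was 0.05 ± 0.29 in C6SPGFP, unlike that of the other probe set. In C6 it was -0.42 ± 0.29 (adjusted p = 0.507), close to that of the other probe set, and fast arrays again lay below slow arrays. Across the 8 arrays, which share 4 groups, Pearson's r between both Mmp2 probe sets was -0.01.

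Among the inhibitors, Timp3 differed by cell set. Its probe set, U27201_at, gave 78.9 and 51.5 in C6SPGFP fast, 41.6 and 47.1 in C6SPGFP slow, 272 and 216 in C6 fast and 150 and 147 in C6 slow cells. The highest C6SPGFP array was below the lowest C6 array. In fast cells the C6SPGFP minus C6 change was -1.80 ± 0.23 (adjusted p = 0.00122), a 3.48-fold difference, and this passed under all 17 alternatives. In slow cells it was -1.58 ± 0.23 (adjusted p = 0.00638), 3-fold, and the call ended, narrowly, without either C6SPGFP slow replicate (adjusted p = 0.0529 without replicate 1 and 0.0502 without replicate 2). Timp3 was the only member called in slow cells, where 6.34% of all tested probe sets passed. This is 1 of 7, leaving out the Timp1 probe set rc_AI169327_g_at (1 of 8 with it). In fast cells 3 of 7 were called, 2 higher and 1 lower in C6SPGFP, leaving out the Timp1 probe set rc_AI169327_g_at (4 of 8 with it), against 15.6% of all tested probe sets, 8.29% higher and 7.3% lower.

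Timp3 was also higher on both fast arrays than on both slow arrays within each set, but neither change passed. It was 0.46 ± 0.23 in C6SPGFP (adjusted p = 0.572) and 0.68 ± 0.23 in C6 (adjusted p = 0.139). The order of the means was C6 fast (244), C6 slow (149), C6SPGFP fast (65.2) and C6SPGFP slow (44.4), in which the fast and slow neighbours of each set did not pass the test. The difference between the changes was -0.22, with a 95% interval of -0.96 to 0.53.

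Timp1 was highest in C6SPGFP fast cells on both of its probe sets, which stem from the same expressed sequence tag and are not independent. The first, rc_AI169327_at, gave 125 and 141 in C6SPGFP fast, 80.2 and 91.7 in C6SPGFP slow, 73.4 and 51.4 in C6 fast and 85.8 and 74.9 in C6 slow cells. Both C6SPGFP fast arrays lay above the other 6. Against C6 fast cells the change was 1.02 ± 0.22 (adjusted p = 0.0146), 2.02-fold. That call ended without C6 fast replicate 2 (adjusted p = 0.0697), C6SPGFP fast replicate 1 (0.0568) or C6SPGFP fast replicate 2 (0.101). Fast minus slow was 0.59 ± 0.22 in C6SPGFP (adjusted p = 0.386) and -0.34 ± 0.22 in C6 (adjusted p = 0.461), and neither passed.

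The second Timp1 probe set, rc_AI169327_g_at, gave 31.2 and 25.5 in C6SPGFP fast cells. It gave 2.45 and 1.91 in C6SPGFP slow, 2.6 and 2.65 in C6 fast and 1.88 and 1.56 in C6 slow cells. With a mean of 8.72 it passed the filter only through the C6SPGFP fast arrays, and its other arrays lay at 2.65 or below. Its calls also passed with no filter, but they rest on these low signals and support nothing beyond the first probe set. The fitted changes were 1.83 ± 0.25 for fast minus slow in C6SPGFP (adjusted p = 0.0108) and 1.77 ± 0.25 for C6SPGFP minus C6 in fast cells (adjusted p = 0.00185). The difference between the sets in the fast minus slow change was 1.70 ± 0.35 (adjusted p = 0.0349, or 0.0536 with the replicate number as a block). Without either C6SPGFP fast array the probe set fell below the filter, and without C6SPGFP slow replicate 2 the change within C6SPGFP no longer passed (adjusted p = 0.105). The call on the difference ended in each of the 6 other runs without an array, at adjusted p-values from 0.0633 to 0.131. Pearson's r between both Timp1 probe sets over the 8 arrays was 0.81.

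Timp2, the inhibitor that also helps to activate Mmp2, had 709 and 608 in C6SPGFP fast, 630 and 610 in C6SPGFP slow, 966 and 762 in C6 fast and 907 and 768 in C6 slow cells (S72594_s_at). Fast and slow arrays overlapped in both sets, and the 95% interval of the change was -0.29 to 0.45 in C6SPGFP and -0.33 to 0.41 in C6. All 4 C6SPGFP arrays lay below all 4 C6 arrays. The changes of -0.38 ± 0.16 in fast cells (adjusted p = 0.158) and -0.42 ± 0.16 in slow cells (adjusted p = 0.175) did not pass.

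Of the 8 probe sets, the arrays of the compared groups did not overlap for 5 between fast and slow C6SPGFP cells, against 44.1% of all tested probe sets, and for 6 between fast and slow C6 cells, against 45.1%. Between C6SPGFP and C6 they did not overlap for 5 in fast cells, against 55.6% of all tested probe sets, and for 6 in slow cells, against 51.4%. Each of these counts includes the Timp1 probe set rc_AI169327_g_at, which entered the test only through its C6SPGFP fast arrays. In the other groups its signals were 1.56 to 2.65, so the counts are a description only. The median change of the 8, with the same probe set among them, was 0.27 in C6SPGFP, -0.15 in C6, -0.03 between the sets in fast cells and -0.18 in slow cells. Without it, the middle change of the other 7 was 0.08 in C6SPGFP, -0.34 in C6, -0.06 in fast cells and -0.42 in slow cells. The medians over all tested probe sets were -0.02 in C6SPGFP, 0.01 in C6, -0.03 in fast cells and 0.01 in slow cells. In C6SPGFP fast against C6 fast cells, the comparison with the most member calls, Mmp16 and Timp1 were higher and Timp3 was lower. No member of either role passed in every comparison.

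**Figure D3:**
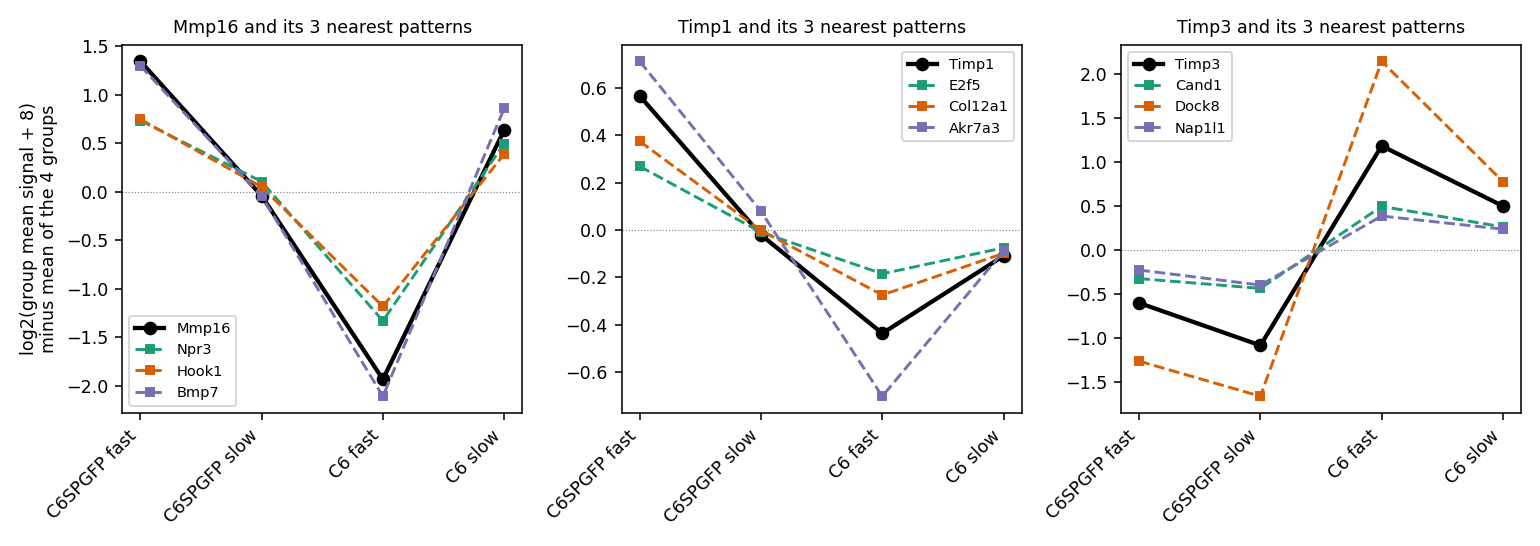
Log2 of group mean signal plus 8, centred on the mean of the 4 groups, for Mmp16, Timp1 (rc_AI169327_at) and Timp3 with the 3 genes most correlated with each over the 8 arrays. Lines only guide the eye between groups. Mmp16 and its neighbours are lowest in C6 fast, Timp1 and its neighbours are highest in C6SPGFP fast, and Timp3 and its neighbours are higher in both C6 groups.

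The genes whose pattern over the 8 arrays was most like that of Mmp16 were Npr3, the clearance receptor of natriuretic peptides (Pearson's r = 0.987), Hook1, an adaptor between endosomes and microtubules (0.985), and Bmp7, a bone morphogenetic protein (0.981). Bmp7 averaged 122 in C6SPGFP fast, 43.2 in C6SPGFP slow, 4.26 in C6 fast and 87.8 in C6 slow cells. For Timp1 they were the transcription factor E2f5 (0.985), the collagen chain Col12a1 (0.983) and the aldehyde reductase Akr7a3 (0.972). For Timp3 they were Cand1, a regulator of cullin ubiquitin ligases (0.986), Dock8, an exchange factor for small GTPases (0.984), and the histone chaperone Nap1l1 (0.977). Dock8 averaged 39.2 in C6SPGFP fast, 27.8 in C6SPGFP slow, 492 in C6 fast and 186 in C6 slow cells. With 8 arrays in 4 groups that share a line and a normalisation, and every tested probe set with a symbol searched, correlations of this height are a description only.

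The rest of the metalloproteinase system was examined through 6 lists with 68 genes tested, 1 probe set per gene. The lists were chosen with earlier results of these data known and take the probe set with the highest signal. The shares over all tested probe sets are therefore not a like baseline, and the counts are a description only. In fast cells 13 of them were higher and 3 lower in C6SPGFP than in C6, where 8.29% of all tested probe sets were higher and 7.3% lower, and in slow cells 8 were higher and 3 lower, where 3.29% of all tested probe sets were higher and 3.05% lower. For fast against slow cells 2 were higher in C6SPGFP, where 1.06% of all tested probe sets were higher and 0.329% lower. In C6 1 was higher and 4 were lower, against 2.69% of all tested probe sets higher and 3.96% lower. The difference between these changes was positive (C6SPGFP over C6) for 4 called genes and negative for 1, against 2.71% of all tested probe sets positive and 1.11% negative.

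Of 9 other matrix metalloproteinases on the array 6 were tested, and Mmp8, Mmp10 and Mmp13 lay below the filter in their mean signal. Mmp3, Mmp7, Mmp9 and Mmp12 passed in no comparison. Mmp11, stromelysin 3, gave 120 and 106 in C6SPGFP fast against 27.6 and 48 in C6 fast cells, a change of 1.44 ± 0.28 (adjusted p = 0.0108). Mmp23 was higher there by 0.85 ± 0.24 (adjusted p = 0.0458), a call that ended in 11 of 16 alternatives. The median of the 6 in that comparison was 0.19, against -0.03 over all tested probe sets. Of 7 related metalloproteinases none passed in fast cells (median 0.18). In slow cells Adam17, the shedding protease that Timp3 can inhibit, gave 221 and 234 in C6SPGFP against 84.2 and 111 in C6 (1.17 ± 0.21, adjusted p = 0.0142). Ece1, the endothelin-converting enzyme, was higher there by 0.86 (adjusted p = 0.0472, lost in 13 of 17 alternatives). Adam10 passed in no comparison. Of the other genes listed with inhibitors, A2m and Pcolce were tested, and Pcolce, better known as an enhancer of procollagen processing, was higher in C6SPGFP fast than in C6 fast cells by 0.64 ± 0.15 (adjusted p = 0.0242).

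Among 14 activators, partners and clearance receptors, 4 were higher and 1 was lower in C6SPGFP fast than in C6 fast cells, against 8.29% of all tested probe sets higher and 7.3% lower (median 0.23, against -0.03). Cd44, the hyaluronan receptor that can dock metalloproteinases at the cell surface, gave 926 and 1000 in C6SPGFP fast against 458 and 454 in C6 fast cells (1.06 ± 0.13, adjusted p = 0.000955). The caveolar protein Cav1 was higher by 1.26 ± 0.13 (adjusted p = 0.000473), the heparan sulphate proteoglycan Sdc4 by 1.39 ± 0.18 (0.00122) and the integrin chain Itgb3 by 0.80 ± 0.23 (0.0471, lost in 11 of 17 alternatives). Sdc1 was lower in C6SPGFP in both fast (-0.58 ± 0.16, adjusted p = 0.0417, lost in 10 of 17 alternatives) and slow cells (-1.24 ± 0.16, adjusted p = 0.00381). In slow cells 2 of the 14 were higher and 1 was lower, against 3.29% of all tested probe sets higher and 3.05% lower. The 2 were Cav1 (0.88 ± 0.13, adjusted p = 0.00669, lost in 2 of 17 alternatives) and Pcsk6 (0.99 ± 0.21, adjusted p = 0.0277, lost in 6 of 17). Furin, the convertase that activates membrane-type metalloproteinases, fell to 296 and 302 in C6 fast cells, against 606 and 445 in C6 slow cells (-0.78 ± 0.17, adjusted p = 0.0303), a call that ended in 9 of 17 alternatives. It was 316 and 314 in C6SPGFP fast and 408 and 428 in C6SPGFP slow cells, where the change did not pass.

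**Figure D4:**
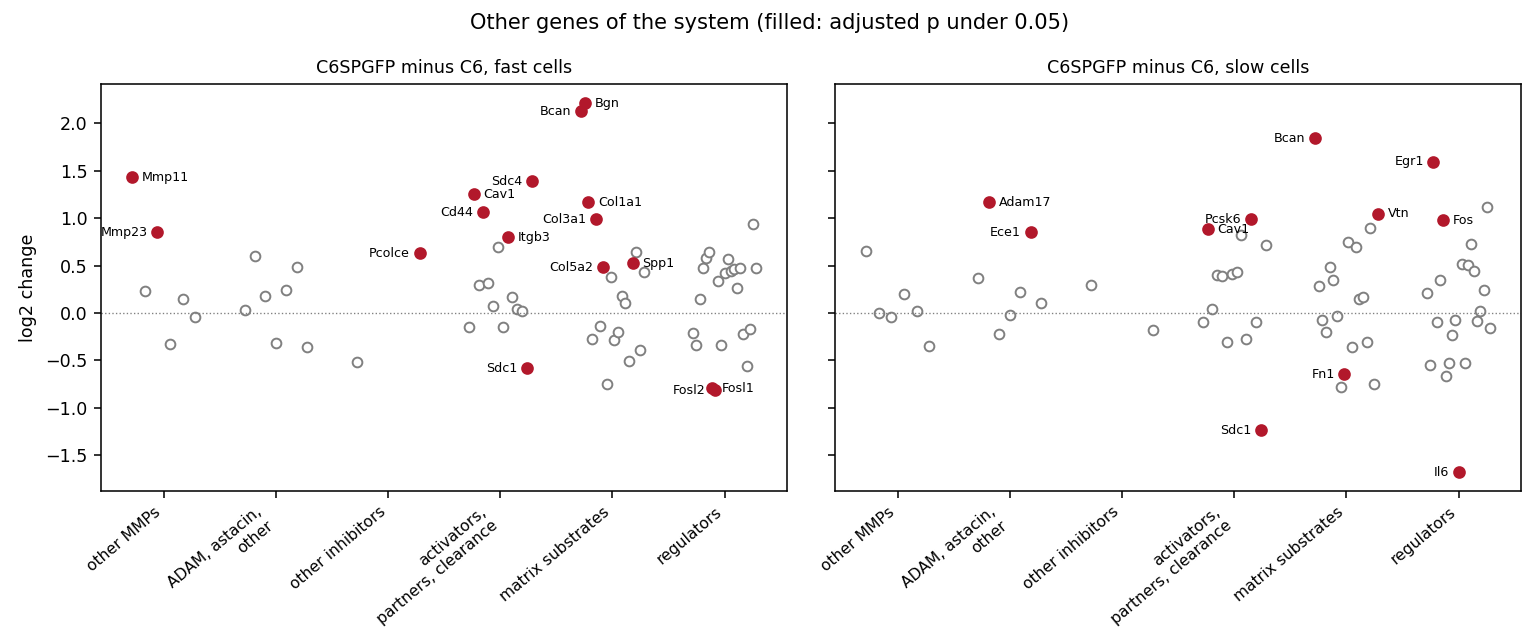
Log2 change of C6SPGFP minus C6 in fast cells (left) and slow cells (right) for the tested genes of the 6 lists. Each point is a gene, and filled, named points passed at an adjusted p under 0.05. In fast cells 13 filled points lie above 0 and 3 below.

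Of 18 matrix proteins that metalloproteinases are known to cut, or that bind to the matrix with them, 6 were higher and none was lower in C6SPGFP fast than in C6 fast cells (median 0.28). Of all tested probe sets 8.29% were higher and 7.3% lower there (median -0.03). Biglycan (Bgn), a small proteoglycan, gave 1478 and 1238 in C6SPGFP fast against 223 and 364 in C6 fast cells (2.21 ± 0.27, adjusted p = 0.00102). It also fell in fast against slow C6 cells, by 2.10 on the log2 scale (adjusted p = 0.00205), as did the collagen chain Col1a1, by 0.75 (adjusted p = 0.0462, lost in 11 of 17 alternatives). The brain proteoglycan brevican (Bcan) was higher in C6SPGFP in fast (2.13 ± 0.29, adjusted p = 0.00155) and slow cells (1.84 ± 0.29, adjusted p = 0.00844). Fibronectin (Fn1) gave 1797 and 2100 in C6SPGFP fast against 1088 and 985 in C6SPGFP slow cells (0.90 ± 0.12, adjusted p = 0.00996). Its mean was 1490 in C6 fast and 1630 in C6 slow cells. Between the sets Fn1 was lower in C6SPGFP in slow cells (-0.65 ± 0.12, adjusted p = 0.0163, lost in 4 of 17 alternatives). In fast cells the change between the sets did not pass (0.38 ± 0.12, adjusted p = 0.0664). Of 21 transcription factors and signals known to act on metalloproteinase genes, none was higher and 2 were lower in C6SPGFP fast than in C6 fast cells (median 0.34), near the 7.3% lower among all tested probe sets (8.29% higher, median -0.03). They were the AP-1 members Fosl1 (-0.79 ± 0.19, adjusted p = 0.0239, lost in 4 of 17 alternatives) and Fosl2 (-0.82 ± 0.21, adjusted p = 0.031, lost in 8 of 17). The other AP-1 genes tested had changes of the opposite sign there that did not pass: Fos 0.645, Jun 0.57, Junb 0.442 and Jund 0.466. Egr1 rose in fast against slow C6 cells by 0.78 ± 0.16 (adjusted p = 0.0226, lost in 6 of 17 alternatives), and Il6 fell there by 1.63 (adjusted p = 0.0149, lost in 4 of 16). In slow cells the C6SPGFP minus C6 change was 1.60 for Egr1 (adjusted p = 0.00132) and -1.68 for Il6 (adjusted p = 0.0161, lost in 3 of 16). The difference between the fast minus slow changes was -1.45 for Egr1 (adjusted p = 0.0111, lost in 2 of 16) and 2.10 for Il6 (adjusted p = 0.0355, lost in 8 of 16). Of the 39 calls in the 6 lists, 9 held in every alternative that tested them, and 30 were lost in at least 1. The 9 were those of Cd44, Cav1, Sdc4, Col1a1, Bgn and Bcan between the sets in fast cells, of Sdc1 and Egr1 between the sets in slow cells, and of Bgn in C6.

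The summed signal of the fibroblast marker list was higher in C6SPGFP, where Timp3 was lower, but most of that sum came from Pdgfra. The sum over 7 measured genes was 1272 to 1290 on C6SPGFP fast, 1393 to 1400 on C6SPGFP slow, 501 to 552 on C6 fast and 644 to 798 on C6 slow arrays. Of the 5 that were tested, 3 were higher in C6SPGFP fast than in C6 fast cells (Col1a1, Col3a1 and Pdgfra), against 8.29% of all tested probe sets, and in slow cells 1 was, Pdgfra, against 3.29%. Pdgfra, a receptor that glial precursors also make, averaged 925 in C6SPGFP fast, 1150 in C6SPGFP slow, 356 in C6 fast and 460 in C6 slow cells. The other genes of the list did not share one direction in slow cells. There Col1a1 averaged 180 in C6SPGFP and 190 in C6, and Col3a1 averaged 37.9 in C6SPGFP and 24.6 in C6. Dcn averaged 3.68 in C6SPGFP fast, 4.13 in C6SPGFP slow, 14.8 in C6 fast and 16.0 in C6 slow cells and passed in no comparison, with 1 high array in each C6 group. Postn, below the filter, averaged 3.78 in C6SPGFP fast, 10.2 in C6SPGFP slow, 0.756 in C6 fast and 16.2 in C6 slow cells. Lum, at 8.82 to 12.1 in the group means, and Thy1, at 1.71 to 7.44, stayed low. The part of these genes in the Timp3 result was not tested.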

How the data were processed

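Gene expression was measured on 8 oligonucleotide arrays of 8799 probe sets, 59 of them controls, in 4 groups of 2 taken from the sample titles. The deposited values are linear signals of intensity, made by the authors with software not stated in the labels or the file. Judged from the deposited values, arrays had been brought one by one to a common target, with C6SPGFP fast replicate 1 at another. Detection calls are not used here. Signals were quantile normalised between arrays (limma 3.58.1, R 4.3.3), 2056 probe sets with a mean under 8 were left out, and log2 of signal plus 8 was fitted with 4 group means (lmFit, eBayes with a trend). This gave 4 residual and 4.49 prior degrees of freedom. In each of 5 comparisons, two-sided p-values were adjusted over the 6684 probe sets (Benjamini-Hochberg, 5%). Folds are of signal plus 8 and understate changes of low signals. The number of arrays limits the precision.

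The platform annotation gave 7018 probe sets 1 symbol, 308 more than 1 and 1473 none. Of the first, 6994 had an Entrez identifier found in a rat table of GRCr8, and their symbols were taken from it, changed or not. The members and gene lists were chosen with earlier results of these data known. All probe sets of the 6 genes were named, from the lists any gene called, 1 probe set per gene with the highest mean signal, and for each called member the 3 genes with the highest Pearson's r. The fit was tested on simulated data. Alternatives were other scalings, pseudocounts and filters, no trend, only the groups compared, a replicate block and leaving out each array.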

Additional observations from a re-analysis of the deposited data

Results flagged for a closer look

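The fast minus slow change of Mmp16 differed between the cell sets by the test of that difference itself: C6SPGFP minus C6 was 3.94 on the log2 scale (limma adjusted p = 0.000359), 6.33 with a pseudocount of 1 and 2.14 with 32. The signal was higher on 2 of 2 fast arrays in C6SPGFP and lower on 2 of 2 fast arrays in C6, against both slow arrays of the same set. The Timp1 probe set rc_AI169327_g_at gave a difference of 1.70 (adjusted p = 0.0349), which rests on 2 arrays above 25 and 6 arrays under 3. It passed the filter only through those 2 arrays, so this value supports nothing, and it was lost in 8 of 13 alternatives. For the other Timp1 probe set the difference was 0.93 and did not pass (adjusted p = 0.179).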

How the results depend on the processing

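Of the member calls, those of Mmp16 in C6, on the difference and between fast cells, and of Timp3 between fast cells, held in every alternative that tested them. The call of rc_AI169327_g_at between fast cells also held in the 14 alternatives that tested it, but supports nothing beyond the first Timp1 probe set. Member counts here include rc_AI169327_g_at, which passed the filter only through the C6SPGFP fast arrays. The filter at the median left Mmp16, both Mmp2 probe sets and rc_AI169327_g_at untested, so member calls there were 0 in C6, 0 in C6SPGFP, 0 on the difference and 2 in fast cells. With a pseudocount of 1 they were 1 in C6SPGFP and 1 on the difference, and with no filter 1 in C6SPGFP. With the replicate block the difference gave 1, and no other member call changed. The deviations of same-numbered arrays correlated at 0.266 between C6 fast and C6 slow, at 0.104 between C6SPGFP fast and C6SPGFP slow and at -0.127 to 0.0283 between the other groups, and no label ties them, so they were not treated as pairs. Without 1 array, member calls ran from 0 to 2 in C6SPGFP, 1 to 1 on the difference, 0 to 1 in slow cells (0 without either C6SPGFP slow array) and 2 to 4 in fast cells (2 without either C6SPGFP fast array). Calls over all probe sets, 445 in C6, 93 in C6SPGFP, 255 on the difference, 424 in slow and 1042 in fast cells, then ran from 279 (without C6 fast replicate 2) to 447, 21 (without C6SPGFP fast replicate 2) to 107, 124 (without C6SPGFP fast replicate 1) to 273, 95 (without C6SPGFP slow replicate 2) to 431 and 515 (without C6SPGFP fast replicate 2) to 1132. Fits of only the groups compared gave 248 in C6 and 281 in slow cells.

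Signs turned only for changes that were never called. Mmp14 between fast cells was 0.004 with trimmed mean scaling and 0.003 with cyclic loess, against -0.06. Without 1 array it ran from -0.168 to 0.047, from -0.08 to 0.134 in C6SPGFP and from -0.005 to 0.184 in slow cells. Mmp2 ran from -0.24 to 0.336 (U65656_at, C6SPGFP) and from -0.132 to 0.139 (X71466_at, fast cells), and Timp1 (rc_AI169327_at, slow cells) from -0.00022 to 0.178. Timp2 ran from -0.129 to 0.209 in C6, -0.028 to 0.191 in C6SPGFP and -0.127 to 0.211 on the difference, where Timp3 ran from -0.49 to 0.055. In runs without an array the lone array of its group is taken to vary like the other groups. The causes were not tested.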
